A study of Homo sapiens with 4 samples.

Results

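The forkhead (FOX) and Krüppel-like factor (KLF) transcription factor genes were followed by RNA sequencing of 4 libraries from NCI-H1048, a human cell line of small cell lung cancer. The study's title concerns the tuft cell-like form of this cancer. Members were all gene symbols made of FOX, a letter from A to S and a number, or of KLF and a number, with rows of the same symbol summed. This gave 62 of 35979 symbols, 44 forkhead and 18 KLF genes. Of these, 43 reached a mean normalized count of 20 over the 4 libraries (29 forkhead and 14 KLF genes), and 19 did not. The 4 libraries came from cells given COLCA2 gRNA 1, COLCA2 gRNA 2, a POU2F3 gRNA or a non-targeting gRNA (a gRNA is a CRISPR guide RNA). The labels call the genotypes COLCA2 knockout, POU2F3 knockout and WT, and name no other agent for any group. COLCA2 thus had 2 libraries made with different guides, while the POU2F3 and non-targeting groups had 1 library each. Whether the cells were pools or clones is not given in the sources used here.

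Forkhead factors share a winged-helix DNA-binding domain and include pioneer factors that open closed chromatin, such as FOXA1 in endoderm-derived epithelia. Others set single cell types or states, such as FOXI1 in ionocytes, FOXJ1 in ciliated cells, FOXM1 in dividing cells and the FOXO factors downstream of insulin signalling. KLFs share a C-terminal array of zinc fingers that bind GC-rich and CACCC elements, and they differ in their N-terminal parts, which activate transcription or recruit the CtBP or SIN3 corepressors. POU2F3 is the master regulator of tuft cells, a chemosensory epithelial cell type, and COLCA2 is a co-activator that partners it.

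In the cells with POU2F3 or COLCA2 gRNA, 2 abundant lineage forkheads, FOXI1 and FOXA1, were at 19.3% to 35.0% of the non-targeting level. They were the 2 of 43 members at least 2-fold lower in all 3 libraries (1.5% of all genes past the minimum were). The forkheads FOXC1, FOXJ1, FOXN1 and FOXQ1 and the KLFs KLF5, KLF6, KLF9 and KLF10 were the 8 at least 2-fold higher in all 3 (4.89% of all genes). FOXN1 and FOXQ1 were under 20 normalized counts in the control and so had to differ to be counted. FOXQ1, with 14 control reads, was 18.5-fold higher with POU2F3 gRNA and 23.7-fold and 27.5-fold higher with COLCA2 guides 1 and 2. KLF5, a factor of proliferating basal epithelium, was 3.81-fold, 3.88-fold and 3.88-fold higher. The cell cycle factor FOXM1 and the stem cell factor KLF4 stayed within 2-fold of the non-targeting level in every library.

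The promoters of 5 members on which these results turn are shown for reference, as the 250 bases before the RefSeq gene start (GRCh38.p14), read 5′ to 3′ on the gene's strand. FOXI1 (chr5:170105647-170105896, plus strand) stands for the genes that were lower. FOXQ1 (chr6:1311848-1312097, plus strand), FOXC1 (chr6:1609665-1609914, plus strand), KLF5 (chr13:73054726-73054975, plus strand) and KLF9 (chr9:70414658-70414907, minus strand) stand for those that were higher. Capitals mark matches, on either strand, to the GC box GGGCGGG, the short element that KLF and SP factors bind.
FOXI1: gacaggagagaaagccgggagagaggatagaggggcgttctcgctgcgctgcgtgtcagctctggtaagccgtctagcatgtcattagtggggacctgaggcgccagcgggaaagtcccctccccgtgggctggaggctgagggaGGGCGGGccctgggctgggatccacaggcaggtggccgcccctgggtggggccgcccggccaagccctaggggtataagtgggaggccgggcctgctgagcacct
FOXQ1: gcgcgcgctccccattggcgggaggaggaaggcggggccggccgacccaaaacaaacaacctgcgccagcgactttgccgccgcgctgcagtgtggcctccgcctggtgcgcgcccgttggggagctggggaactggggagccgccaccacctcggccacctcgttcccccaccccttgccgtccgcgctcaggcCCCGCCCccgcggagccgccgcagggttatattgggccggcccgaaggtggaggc
FOXC1: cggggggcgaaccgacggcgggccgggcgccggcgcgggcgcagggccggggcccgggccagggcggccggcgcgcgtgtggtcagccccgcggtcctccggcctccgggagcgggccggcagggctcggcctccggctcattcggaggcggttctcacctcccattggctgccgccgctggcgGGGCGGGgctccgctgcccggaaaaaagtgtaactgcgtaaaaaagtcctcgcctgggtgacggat
KLF5: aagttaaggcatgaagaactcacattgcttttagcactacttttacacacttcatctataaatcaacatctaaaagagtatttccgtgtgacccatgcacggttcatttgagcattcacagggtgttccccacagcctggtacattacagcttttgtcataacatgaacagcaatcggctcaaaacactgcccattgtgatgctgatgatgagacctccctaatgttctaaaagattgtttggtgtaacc
KLF9: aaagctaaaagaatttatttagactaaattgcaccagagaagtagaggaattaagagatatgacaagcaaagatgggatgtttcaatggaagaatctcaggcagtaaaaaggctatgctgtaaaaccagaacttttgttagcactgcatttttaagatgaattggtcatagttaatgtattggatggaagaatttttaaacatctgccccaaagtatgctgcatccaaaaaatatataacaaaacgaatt

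The forkhead stretches shown held 1 GC box each, and those of KLF5 and KLF9 held none. Their GC content was 68.4% for FOXI1, 74.0% for FOXQ1 and 76.8% for FOXC1, against 40.8% for KLF5 and 32.4% for KLF9. The search covered both strands from 250 bases before to 50 after the start, for 4 motifs: GGGCGGG, the CACCC box CCACACCC, the forkhead element TGTTTAC and the octamer ATGCAAAT that POU factors such as POU2F3 bind. A GC box can overlap a CACCC box in its run of C. RefSeq windows were matched for 38 of the 43 members past the minimum. GGGCGGG was in 27 of the 38 (71.1%), against 32.9% of 27305 gene promoters, and the members' windows also had a higher median GC content (69.5% against 58.3%). It was in 7 of the 10 matched windows of members at least 2-fold from the non-targeting library (70.0%). By family, GGGCGGG was in 8 of 12 KLF windows (66.7%) and 19 of 26 forkhead windows (73.1%). Median GC content was 69.8% for the KLF windows and 69.5% for the forkhead windows. The KLF5 and KLF9 stretches shown thus do not stand for the KLFs as a family. The octamer was in 0 of the 38 windows and in 1.80% of all windows, TGTTTAC in 1 (that of FOXO4) and in 3.41% of all, and CCACACCC in 0 and in 3.22% of all. A match is only a run of letters. Where the table gave several starts, as for 9 of the members, KLF5 among them, its first was used, and the start in use in these cells is not known.

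Between 21587741 and 29632382 reads per library fell in genes. They were recovered as whole numbers from the authors' normalized counts, and the normalized count is the unit below unless reads are named. POU2F3 had normalized counts of 14602 with the non-targeting gRNA, 1449 with POU2F3 gRNA and 3677 and 2351 with COLCA2 guides 1 and 2. COLCA2 had 5585, 1393, 3119 and 3541 in the same order, so the libraries labelled COLCA2 knockout still held 55.8% and 63.4% of the non-targeting COLCA2 transcript level. A transcript level does not measure a disrupted reading frame. Of 8 tuft markers, TRPM5 had at most 2 reads and CHAT at most 11. The other 6 passed the minimum. All 6 were 2-fold lower with POU2F3 gRNA (3.05% of all genes were) and 5 with both COLCA2 guides (2.02%). These 6 include POU2F3 itself, the gene targeted in the POU2F3 gRNA library. The tuft markers summed to 40683 in the control and 9673 to 14154 in the targeted libraries. Most of the control sum came from SOX9 (17848) and POU2F3 (14602). As a sum the tuft markers were lower together with FOXI1 and FOXA1, and their part in those results was not tested. Of 5 neuroendocrine markers only SYP and INSM1 passed, and INSM1 was lower (log2 ratio -1.72 for POU2F3 gRNA and -2.24 for the COLCA2 mean). Fibroblast, leukocyte and endothelial markers were summed for 5, 5 and 3 genes, and were 1321 to 1587, 162 to 263 and 41.5 to 65.9 across libraries. Members of these lists differed in direction. LUM was higher in all 3 targeted libraries (122 to 233 against 14.3) and CD68 likewise (139 to 209 against 72.6). With 15 reads in the control, LUM passed the minimum only through the targeted libraries. VWF was lower (15.9 to 21.2 against 43.9), as were LYZ (45.6 to 61.3 against 72.6) and PTPRC (8.29 to 9.41 against 16.2). COL1A1 ran from 1002 to 1186 with 1136 in the control, and CD3E was listed at 0 in every library. The part of these genes in the members' results was not tested.

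Every ratio to the non-targeting gRNA rests on the same single library, so what is particular to that library and what the guides did cannot be told apart. Ratios are differences of log2(normalized count + 1), which understates the change of low genes. No p-value is given, because 2 of the 3 groups held 1 library. The call is a 2-fold difference, untested, and for COLCA2 it requires both guides. Intervals on folds are 95% exact intervals that cover counting error only. In bulk RNA, fewer cells of a type and less RNA per cell cannot be told apart.

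The levels of the members were compared per kb of their longest GENCODE transcript. In the non-targeting library FOXM1, which drives the genes of mitosis, was highest at 2226 normalized counts per kb. FOXA1 followed with 1032, FOXI1 with 744, the repressor KLF16 with 694 and the broadly expressed FOXK2 with 686. KLF4 had 468 and KLF6 429. KLF5 was 16th of the 43 members at 182, FOXC1 14th at 211 and FOXQ1 42nd at 5.79.
The order changed with the guides. FOXM1 stayed in place with 1763 to 1857 per kb with POU2F3 gRNA and COLCA2 gRNA 1, and 1685 with gRNA 2. KLF6 was next to it in all 3 targeted libraries (1136 to 1230 per kb), and KLF5 was 3rd or 4th (693 to 707). FOXA1 was 10th to 12th and FOXI1 18th to 22nd. Neighbours in the order such as FOXI1, KLF16 and FOXK2 were close (744, 694 and 686), and the single non-targeting library gives no spread to set against such gaps.

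**Figure D1:**
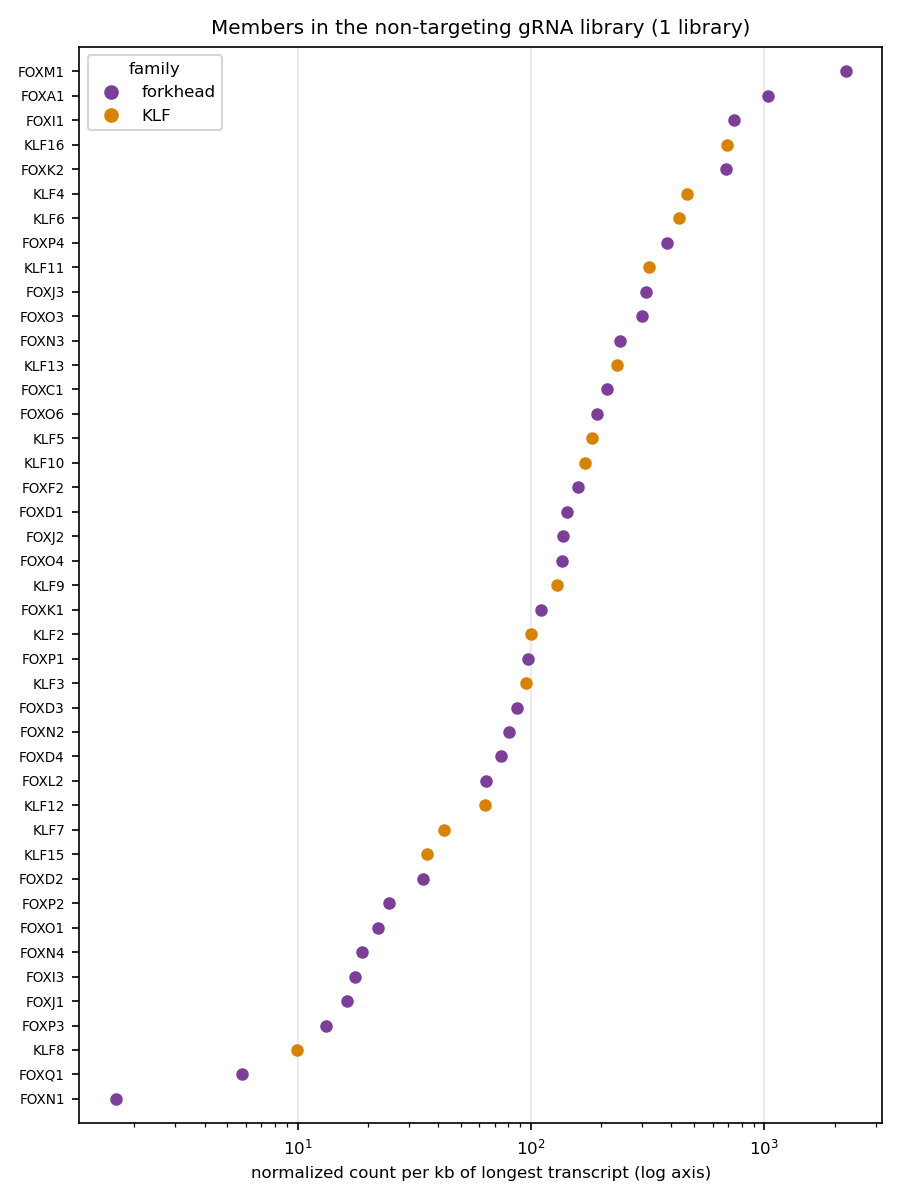
Level of the 43 members past the minimum in the non-targeting library, in normalized counts per kb of longest transcript on a log axis, 1 point per gene, with forkheads and KLFs in different colours. FOXM1, FOXA1 and FOXI1 stood at the top with 2226, 1032 and 744, and FOXQ1 and FOXN1 at the bottom with 5.79 and 1.67.

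With POU2F3 gRNA, 2 of the 43 members were at least 2-fold lower (3.05% of all 14940 genes past the minimum were) and 9 were at least 2-fold higher (6.73% of all genes). With both COLCA2 guides, 3 members were lower (2.02% of all genes) and 8 higher (5.79% of all genes). Of the forkheads, 4 of 29 were higher with each target, and of the KLFs 5 of 14 with POU2F3 gRNA and 4 of 14 with both COLCA2 guides. No KLF was at least 2-fold lower with either target. FOXQ1 and FOXN1 were below 20 in the non-targeting library and passed the minimum only through the other libraries, so they had to differ. Among the 41 others, 7 were higher with POU2F3 gRNA and 6 with both COLCA2 guides. The shares of all genes above were not restricted by the control level, so they are not the matching background for these 41. The edgeR quasi-likelihood test with Benjamini-Hochberg adjustment at 0.05, which takes its spread from the COLCA2 pair alone, called 2 members lower and 8 higher for POU2F3 (3.98% and 8.45% of all genes) and 3 lower and 9 higher for COLCA2 (7.51% and 11.4%). For POU2F3 it compares libraries, not conditions.
The median log2 ratio of the KLFs was 0.27 with POU2F3 gRNA and 0.32 for the average of COLCA2 guides 1 and 2, against -0.0037 and -0.0086 over all genes. Of the 14 KLFs, 13 were above 0 with POU2F3 gRNA (49.6% of all genes were) and 10 with the COLCA2 mean (49.1% of all genes). The forkheads had medians of 0.12 and -0.039, with 16 and 14 of 29 above 0 (55.2% and 48.3%), near those shares of all genes. Summed over all 18 KLFs, normalized counts came to 12063 with the non-targeting gRNA and 21007 to 21605 in the other 3 libraries, whereas the 44 forkheads summed to 31094 and 27479 to 29603.

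**Figure D2:**
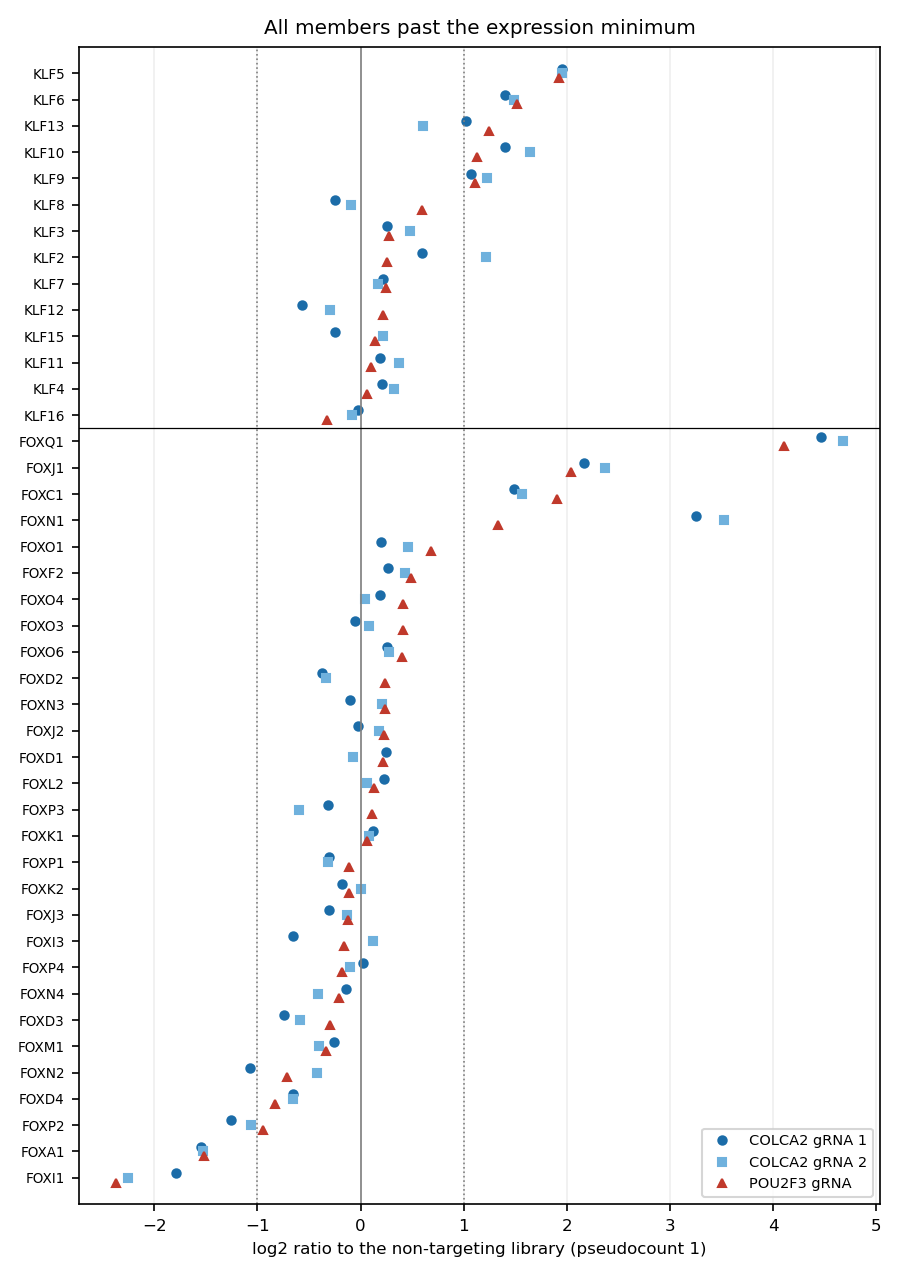
Log2 ratio to the non-targeting library for the 43 members past the minimum, with circles and squares for COLCA2 guides 1 and 2 and triangles for POU2F3 gRNA; dotted lines mark 2-fold, and KLFs are above the horizontal line. FOXI1 and FOXA1 lie left of -1 in all 3 libraries, and FOXQ1, FOXN1, FOXJ1, FOXC1, KLF5, KLF6, KLF9 and KLF10 right of 1.

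FOXI1 (ENSG00000168269, chromosome 5, 170105897 to 170109725, plus strand, GRCh38) specifies ionocytes and the acid-secreting cells of kidney and inner ear. Its normalized count was 1721 with the non-targeting gRNA, 332 with POU2F3 gRNA, and 498 and 360 with COLCA2 guides 1 and 2. All 3 targeted libraries were far below the control, between 332 and 498. The POU2F3 gRNA library held 19.3% of the non-targeting level (interval 17.2% to 21.5%), a log2 ratio of -2.37. Across both COLCA2 guides it averaged -2.02 ± 0.33 (SD, n = 2). Other ionocyte genes were mostly scarce. Of 6 on the list only ATP6V1B1, a proton pump subunit, passed the minimum, with a log2 ratio of -0.69 for POU2F3 gRNA and -0.41 with the COLCA2 mean. CFTR, the chloride channel of ionocytes, stayed between 3.11 and 8.59 normalized counts, and ASCL3, a factor of the same cells, at no more than 2 reads. ATP6V0D2, under the minimum, was lowest in the control (9.55), with 19.3 with POU2F3 gRNA and 40.4 and 10.6 with COLCA2 guides 1 and 2. FOXI3, the paralogue that acts in ectodermal placodes, was low in all libraries (31.1 to 54.1), and its guides lay on both sides of the control. FOXI2 had 0 reads in every library.

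FOXA1 (ENSG00000129514, chromosome 14, 37589984 to 37596059, minus strand) is the pioneer factor of airway and other endodermal epithelia. It had normalized counts of 2953 with the non-targeting gRNA, 1032 with POU2F3 gRNA and 1012 and 1026 with COLCA2 guides 1 and 2. The 3 targeted libraries lay between 1012 and 1032, far below the control. The log2 ratio was -1.52 with POU2F3 gRNA and -1.53 ± 0.014 across both COLCA2 guides (SD, n = 2). TTC6, which overlaps FOXA1 by 213 bp on the other strand, had at most 64.0 normalized counts. FOXA2, its endodermal paralogue, had 17 reads in the control, 16 with POU2F3 gRNA and 18 and 15 with the COLCA2 guides, and FOXA3 at most 1 in any library.
The 15 endoderm and airway genes linked to FOXA factors were mostly below the minimum. Of the 5 past the minimum, AGR2, a secretory-cell disulfide isomerase, had 9.55 normalized counts with the non-targeting gRNA. It was higher with POU2F3 gRNA (82.3) and with both COLCA2 guides (119 and 98.8). AGR2 was below 20 in the control and passed the minimum only through the targeted libraries, so it had to differ. The remaining genes past the minimum stayed within 2-fold, among them NKX2-1, the lung lineage factor, and GRHL2, an epithelial grainyhead factor.

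FOXJ1 (ENSG00000129654), which switches on the motile cilium programme, had normalized counts of 43.0 with the non-targeting gRNA, 180.5 with POU2F3 gRNA and 196 and 226 with COLCA2 guides 1 and 2. Each targeted library was above the single control library. The log2 ratio was 2.04 with POU2F3 gRNA and 2.26 ± 0.14 across both COLCA2 guides (SD, n = 2), from 45 reads in the control. RNF157-AS1, an antisense gene in GENCODE that overlaps FOXJ1 by 744 bp, was not analysed here, and use of the strand in counting is not given in the sources used here. Of the 11 ciliated cell genes on the list linked to FOXJ1, 7 passed the minimum. Of these, 1 was 2-fold higher with POU2F3 gRNA (6.73% of all genes were) and 0 with both COLCA2 guides (5.79%). That gene, CCDC39, an axoneme ruler, had 151 normalized counts with POU2F3 gRNA against 64.9 in the control, and 41.5 and 105 with the COLCA2 guides, which lay on both sides. The dynein genes DNAI1 and DNAH5 stayed below 10 normalized counts, and TEKT1 and DNAI2 were at 0. FOXN4, which acts with FOXJ1 upstream of multiciliation, was similar in all libraries (47.0 to 63.0).

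FOXQ1 (ENSG00000164379), a factor of surface epithelium that is linked to loss of epithelial traits in carcinoma, had 14 reads with the non-targeting gRNA, 294 with POU2F3 gRNA and 305 and 313 with COLCA2 guides 1 and 2. Its normalized counts were 13.4, 247, 316 and 368 in that order. As a ratio, this was the widest difference from the control of any member past the minimum. The fold with POU2F3 gRNA was 18.5 (interval 10.8 to 34.2), wide because of the few control reads, and the mean log2 ratio with the COLCA2 guides was 4.57 ± 0.15 (SD, n = 2).
FOXC1 (ENSG00000054598), a regulator of mesenchyme, eye and skin appendage development, had normalized counts of 829.8 with the non-targeting gRNA, 3116 with POU2F3 gRNA and 2329 and 2465 with the COLCA2 guides. It was highest with POU2F3 gRNA. The log2 ratio was 1.91 there and 1.53 ± 0.058 across both COLCA2 guides (SD, n = 2). FOXQ1, FOXF2 and FOXC1 stand in a row, all on the plus strand, on chromosome 6 at 1312440 to 1314748, 1389576 to 1395603 and 1609972 to 1613897. FOXF2, the mesenchymal factor in the middle, was 74.8 kb from FOXQ1 and 214 kb from FOXC1, yet it stayed within 2-fold: 389.6 with the non-targeting gRNA, 549 with POU2F3 gRNA and 469 and 526 with the COLCA2 guides. The related row of FOXF1, FOXC2 and FOXL1 on chromosome 16 had at most 2 reads per gene in any library.

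FOXN1 (ENSG00000109101), the factor of thymic epithelium and of keratinocyte differentiation, had 6 reads with the non-targeting gRNA, 19 with POU2F3 gRNA and 61 and 65 with COLCA2 guides 1 and 2. Its normalized counts were 5.73, 15.9, 63.2 and 76.4. Both COLCA2 guides stood well above POU2F3 gRNA, which itself was only a few reads above the control. The log2 ratio was 1.33 with POU2F3 gRNA, where the interval on the fold ran from 1.07 to 8.52 and a pseudocount of 10 gave 0.72, inside 2-fold, and 3.39 ± 0.19 across both COLCA2 guides (SD, n = 2). FOXN1 passed 2-fold with POU2F3 gRNA but was not called by edgeR. A protein-coding model on the opposite strand, AC005726.1, spans all of FOXN1 and had 479 to 642 normalized counts, highest in the control. This overlap, like those of FOXA1, FOXJ1 and FOXM1, is one of gene spans, and overlap of exons was not tested.

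FOXP2 (ENSG00000128573), a transcriptional repressor of lung and brain development, had normalized counts of 204 with the non-targeting gRNA, 106 with POU2F3 gRNA and 85.0 and 97.6 with the COLCA2 guides. Its mean log2 ratio was -1.16 ± 0.14 across both COLCA2 guides (SD, n = 2) and -0.94 with POU2F3 gRNA, just inside 2-fold. With a pseudocount of 10, guide 2 gave -0.99, so that the call with both guides ended. Its paralogues differed less. FOXP1 had 871 in the control, 807 with POU2F3 gRNA and 706 and 699 with the COLCA2 guides, a mean log2 ratio of -0.31 ± 0.011 (SD, n = 2). FOXP4 ran from 2016 to 2330, and FOXP3, the regulatory T cell factor, from 21.2 to 35.3.

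FOXM1 (ENSG00000111206) had 7764 with the non-targeting gRNA, 6147 with POU2F3 gRNA and 6477 and 5874 with COLCA2 guides 1 and 2. The control was highest, by a log2 ratio of -0.34 for POU2F3 gRNA and -0.33 ± 0.10 for the COLCA2 guides (SD, n = 2). FOXM1 overlaps ITFG2 and RHNO1 on the other strand by 2111 and 898 bp. All 16 FOXM1 target genes on the list passed the minimum, and the median of their log2 ratios was -0.25 for POU2F3 gRNA and -0.21 with the COLCA2 mean. CENPE, the kinetochore motor, was the 1 target at least 2-fold lower with POU2F3 gRNA (842 against 2050), and with the COLCA2 guides it had 1036 and 1069.

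The FOXO factors are held in the cytoplasm by AKT, so transcript levels say little of their activity. FOXO3 had normalized counts of 2202 with the non-targeting gRNA, 2929 with POU2F3 gRNA and 2123 and 2327 with the COLCA2 guides. FOXO1 had 127, 205, 146 and 175 in that order. FOXO4 and FOXO6 likewise were highest with POU2F3 gRNA, at 598 and 609. All 4 were thus above the control and above both COLCA2 guides with POU2F3 gRNA. Of all genes, 35.6% were higher with POU2F3 gRNA than with both guides. The log2 ratios of the 4 to the control were 0.41 to 0.69, and none was 2-fold apart. The FOXO6 value is the sum of 2 annotated rows. Its row with GENCODE coordinates had 214 with POU2F3 gRNA, between the COLCA2 guides (190 and 223). FOXO3 shares sequence with the near-identical copy FOXO3B, so its count is uncertain.
Of the 18 FOXO target genes past the minimum, 5 were at least 2-fold higher with POU2F3 gRNA and with both COLCA2 guides and none was 2-fold lower. Of all genes, 6.73% were higher with POU2F3 gRNA and 5.79% with both COLCA2 guides, and 3.05% and 2.02% were lower. The part of the FOXO factors in these values was not tested. IRS2, the insulin receptor adaptor, had 565 in the control, 2820 with POU2F3 gRNA and 3144 and 3708 with the COLCA2 guides. SOD2, the mitochondrial superoxide dismutase, had 4083, 9725, 12190.1 and 13293. CITED2, FBXO32 and BCL6 had log2 ratios of 1.29, 1.70 and 1.92 with POU2F3 gRNA. The median of the list was 0.44 with POU2F3 gRNA and 0.40 with the COLCA2 mean, against -0.0037 and -0.0086 over all genes. Of the 16 FOXO regulators, SGK1, an AKT-related kinase that phosphorylates FOXO3, was the 1 past 2-fold, with 713 in the control and 317 with POU2F3 gRNA. It had 369 and 398 with the COLCA2 guides.

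The broadly expressed forkheads FOXK1, FOXK2, FOXJ2, FOXJ3 and FOXN3 all stayed within log2 ratios of -0.31 and 0.24. FOXN2 had 434 in the control, 264 with POU2F3 gRNA and 206 and 323 with COLCA2 guides 1 and 2, and so was 2-fold lower with guide 1 only. FOXD1, FOXD2, FOXD3, FOXD4 and FOXL2, which pattern embryonic tissues, had 82.3 to 386 normalized counts. None was 2-fold apart. FOXD4 was lower in all 3 targeted libraries (82.3 to 93.3 against 147), with the reserve that near-identical FOXD4-like copies share its reads. The 22 forkheads that were not 2-fold apart had log2 ratios of -0.83 to 0.69 with POU2F3 gRNA and of -0.75 to 0.35 with the COLCA2 mean.

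KLF5 (ENSG00000102554, chromosome 13, 73054976 to 73077542, plus strand), an activator in proliferating basal epithelial cells, had normalized counts of 649 with the non-targeting gRNA, 2471 with POU2F3 gRNA and 2521 and 2519 with COLCA2 guides 1 and 2. The 3 targeted libraries lay within 2471 to 2521 and the control far below. The log2 ratio was 1.93 with POU2F3 gRNA and 1.95 with both COLCA2 guides. KLF12, a CtBP-binding repressor whose gene lies 609 kb from KLF5, did not share the pattern: 679 in the control, 792 with POU2F3 gRNA and 459 and 553 with the COLCA2 guides.
KLF6 (ENSG00000067082), an activator induced in wound and stress responses, had 1997 with the non-targeting gRNA, 5729 with POU2F3 gRNA and 5287 and 5613 with the COLCA2 guides. Its log2 ratio was 1.52 with POU2F3 gRNA and 1.45 ± 0.061 across both COLCA2 guides (SD, n = 2). KLF7, its closest paralogue, stayed between 354 and 421.

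KLF4 (ENSG00000136826), the factor of epithelial differentiation and pluripotency, had 1316 in the control, 1371 with POU2F3 gRNA and 1518 and 1654 with COLCA2 guides 1 and 2. The control was the lowest by a small margin, with log2 ratios of 0.060 for POU2F3 gRNA and 0.27 ± 0.087 for the COLCA2 guides (SD, n = 2). KLF2, the flow-responsive activator of endothelium and T cells, separated the guides more than most KLFs: 306 with gRNA 1 and 470 with gRNA 2, against 201 in the control and 242 with POU2F3 gRNA. It was 2-fold higher with gRNA 2 only.
The list of 13 epithelial genes linked to KLF4 and KLF5 was chosen with earlier results on KRT13 and CDKN1A known. Of its 9 genes past the minimum, 5 were higher with POU2F3 gRNA (6.73% of all genes were) and 7 with both COLCA2 guides (5.79%). With each target 1 was lower (3.05% and 2.02% of all genes). FGFBP1 and TGM1, at 16.2 and 13.4 in the control, passed the minimum only through targeted libraries, so they had to differ in some of them. CDKN1A, the cell cycle inhibitor p21, had log2 ratios of 1.81 and 2.08 (COLCA2 mean), and the suprabasal keratin KRT13 had 5.89 and 4.95. CDH1, the adherens junction cadherin, had 747 in the control, 2126 with POU2F3 gRNA and 2351 and 2537 with the COLCA2 guides. KRT19, a simple epithelial keratin, had 889, 2390, 2077 and 2344. FGFBP1, a secreted carrier of growth factors, had 16.2, 98.2, 150.3 and 166. CCND1, the G1 cyclin, was 2-fold higher with both COLCA2 guides (1461 and 1474 against 719) and had 833 with POU2F3 gRNA. SPRR2A, a cornified envelope gene named after its values were seen, was the lower one, with 106 in the control and 22.3 to 42.5 elsewhere.

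Among the KLFs that recruit the SIN3 corepressor, KLF10 (ENSG00000155090), an early target of TGF-beta, had 623 with the non-targeting gRNA, 1361 with POU2F3 gRNA and 1651 and 1948 with COLCA2 guides 1 and 2. Its log2 ratio was 1.13 with POU2F3 gRNA and 1.52 ± 0.17 across both COLCA2 guides (SD, n = 2). KLF9 (ENSG00000119138), a target of glucocorticoid and thyroid hormone receptors, had 670.4, 1446, 1411 and 1575 in the same order. Its log2 ratio was 1.11 with POU2F3 gRNA and 1.15 ± 0.11 across both COLCA2 guides (SD, n = 2). For both genes the control was the lowest library by a wide margin. Scaled to equal totals, KLF9 was 0.998 with guide 1, so that its call with both guides ended.
KLF13 (ENSG00000169926), a repressor and T cell cytokine regulator, had 1592 in the control, 3768 with POU2F3 gRNA and 3246 and 2431 with the COLCA2 guides. It was past 2-fold with POU2F3 gRNA (log2 ratio 1.24) and with gRNA 1 (1.03), and not with gRNA 2 (0.61). Its value is the sum of 2 annotated rows that split the reads differently. The row with GENCODE coordinates had log2 ratios of 1.44, 0.93 and 0.28 with POU2F3 gRNA, COLCA2 gRNA 1 and gRNA 2, and the second row 0.83, 1.18 and 1.04. KLF11 (1295 to 1675) and KLF16 (1604 to 2004) were much alike in all libraries, and KLF14 had at most 9 reads.

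The KLFs that recruit CtBP were within 2-fold of the control. KLF3 had 488 in the control, 591 with POU2F3 gRNA and 583 and 680 with the COLCA2 guides. KLF8 had 88.8, 135, 74.7 and 83.5. KLF15, a metabolic KLF, ran from 77.8 to 108. Of the 14 KLF cofactors and regulators, all past the minimum, MEF2C was the 1 at least 2-fold apart, with 62.1 in the control, 185 with POU2F3 gRNA and 97.5 and 119 with the COLCA2 guides, which were higher by less than 2-fold. Of the 9 SP genes, the closest relatives of the KLFs, 7 passed the minimum and SP6, an epithelial SP factor, was the 1 apart. It had 3.82 normalized counts in the control, 35.3 with POU2F3 gRNA and 30.1 and 48.2 with the COLCA2 guides, and passed the minimum only through those libraries.

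**Figure D3:**
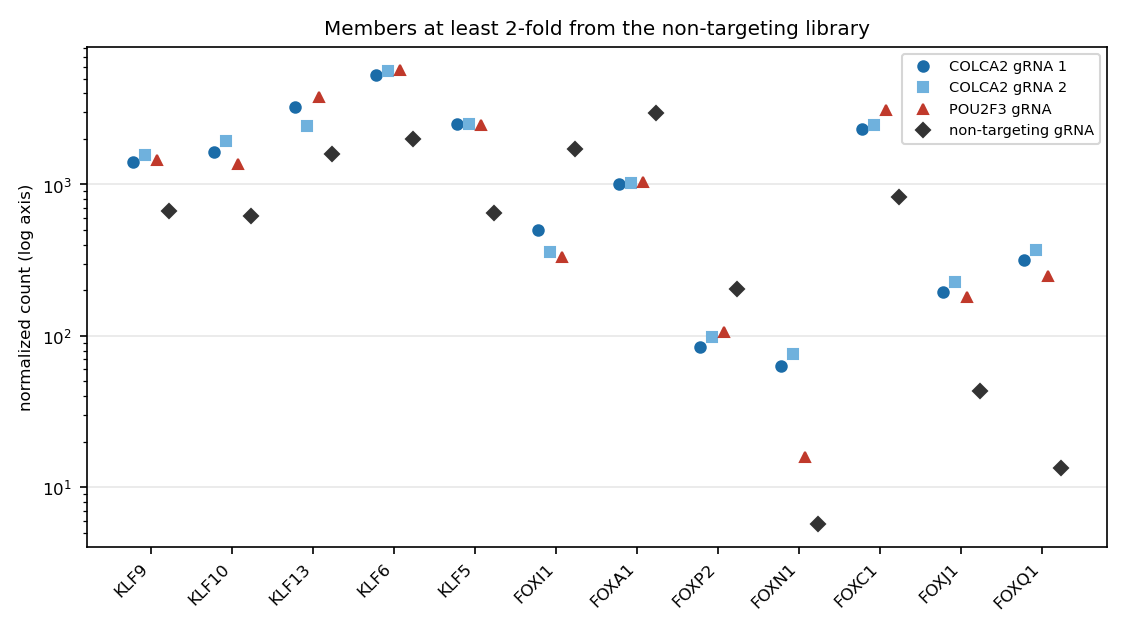
Normalized count on a log axis for the 12 members at least 2-fold from the non-targeting library with POU2F3 gRNA or with both COLCA2 guides, 1 point per library. The diamond of the control lies above the other 3 libraries for FOXI1, FOXA1 and FOXP2 and below them for the 9 others; FOXN1 is the gene where POU2F3 gRNA (15.9) and the COLCA2 guides (63.2 and 76.4) are farthest apart.

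The POU2F3 gRNA library was also set directly against each COLCA2 guide, which leaves the non-targeting library out. One member, FOXN1, was at least 2-fold lower with POU2F3 gRNA than with both guides (0.924% of all genes were), by log2 ratios of -1.92 and -2.19. No member was 2-fold higher than both (0.442% of all genes). The edgeR test called 0 members in this contrast (0.234% of all genes lower and 0.107% higher). The guides themselves were never 2-fold apart among the members (2.22% of all genes were). The median absolute log2 ratio between the guides was 0.18 for the members and 0.13 for all genes.
At any size, 20 members were higher with POU2F3 gRNA than with both guides (35.6% of all genes) and 13 lower (38.9% of all genes), so that 33 lay outside the guides' values (74.5% of all genes did). KLF8 was higher with POU2F3 gRNA than with COLCA2 guides 1 and 2 by log2 ratios of 0.85 and 0.69, while the guides differed by 0.16. KLF12 was higher by 0.79 and 0.52, and the guides differed by 0.27. FOXD2 was higher by 0.61 and 0.57. In the other direction, KLF2 had log2 ratios of -0.34 and -0.96, FOXQ1 of -0.36 and -0.58, KLF10 of -0.28 and -0.52, and KLF16 of -0.30 and -0.24. FOXA1 and KLF5, by contrast, differed from each guide by at most 0.029.

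**Figure D4:**
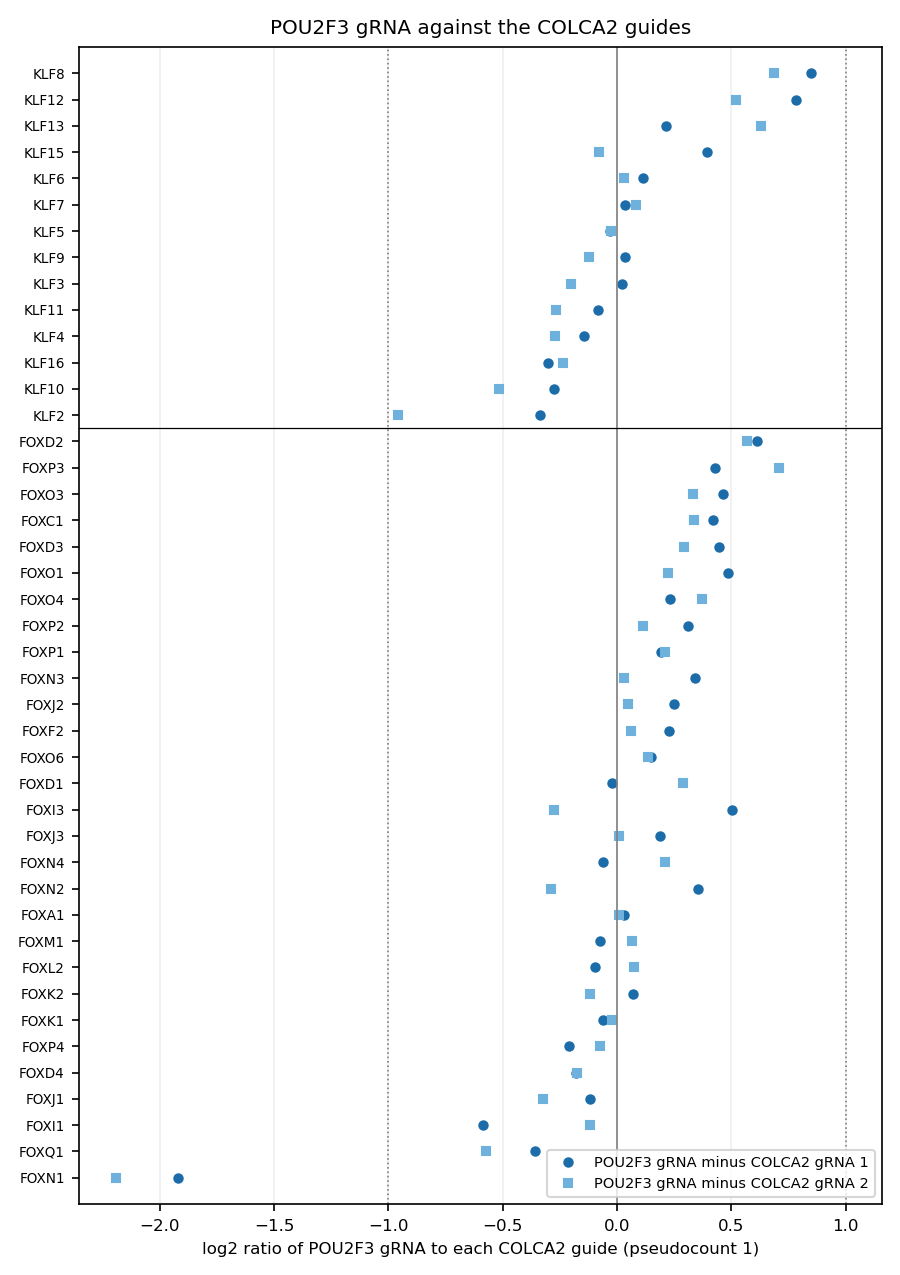
Log2 ratio of the POU2F3 gRNA library to COLCA2 gRNA 1 (circles) and gRNA 2 (squares) for the 43 members past the minimum, with dotted lines at 2-fold and KLFs above the horizontal line. FOXN1 alone lies beyond the dotted line with both guides, at -1.92 and -2.19.

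Of the 19 members under the minimum, 15 were forkheads and 4 were KLFs. FOXB1, FOXI2, FOXR2 and KLF18 had 0 reads in every library, which allows up to 3 reads per library. FOXA2 and FOXH1 were among those with at least 10 reads in a library. FOXH1, a SMAD partner in nodal signalling, had 14 reads in the control, 8 with POU2F3 gRNA and 4 and 1 with the COLCA2 guides. The erythroid KLF1 had at most 8 reads and the germ cell factor KLF17 at most 8.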

How the data were processed

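Poly(A) RNA libraries were made from 4 samples of NCI-H1048 cells with a NEBNext kit, per the labels' protocols. Per the file headers, the authors deposited a linear signal, the normalized count of each gene. Salmon and DESeq2 on hg38 are named in the submitters' processing notes, without role or version. In each library 100% of values were whole multiples (within 0.01) of 1 step, so whole reads were recovered by division. Reads that Salmon estimates and rounds would look the same. Annotation and use of the strand are not given in the sources used here.

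Rows of 1 symbol were summed (38145 rows, 35979 symbols), and 14940 symbols with a mean of at least 20 were kept. Log2 ratios used a pseudocount of 1. A 2-fold difference was counted. edgeR 4.0.16 (R 4.3.3, TMM, 3 groups, 1 residual degree of freedom, Benjamini-Hochberg 0.05 over all kept symbols) was run on the recovered reads as an alternative. Calls were tested on simulated data with planted changes shared by the targeted libraries. That cannot test what is particular to the single control library. Fold intervals came from scipy 1.17.1 (exact, 95%). Gene positions and lengths are from GENCODE release 29 (GRCh38) by identifier, promoters from RefSeq (GRCh38.p14). Members at least 2-fold apart from the control, FOXA1, FOXA2, FOXM1, FOXO1, FOXO3, FOXP1, KLF3, KLF4, KLF5, KLF6 and KLF10 were to be given library by library. Other members were to be given by range and, of each list, up to 6 genes past 2-fold. Further values per library and list genes were added after they had been seen. Members and lists were chosen with earlier results of these data known. The values of 1 member are not reported here. Depth was 21587741 to 29632382 reads. Alternatives were other pseudocounts, scalings, minimums, thresholds, rows and guides left out.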

Additional observations from a re-analysis of the deposited data

How the results depend on the processing

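Shifts over 1.5 times for a count, or over the guides' SD for a median, are listed. No paired analysis was possible because POU2F3 gRNA and the non-targeting gRNA have 1 library each. With no minimum, 5 members were lower with both COLCA2 guides, 1 was higher with POU2F3 gRNA than with both guides, 5 differed between the guides and the forkhead median with POU2F3 gRNA was 0. With a mean of at least 100, 0 members passed as lower with POU2F3 gRNA than with both guides and the KLF median with COLCA2 gRNA was 0.59. At 1.5-fold, 5 members were lower with POU2F3 gRNA, 5 lower with both COLCA2 guides, 1 higher with POU2F3 gRNA than with both guides and 3 apart between the guides. At 4-fold the counts were 1 lower and 2 higher with POU2F3 gRNA, 0 lower and 3 higher with both COLCA2 guides, and 0 lower with POU2F3 gRNA than with both guides. The edgeR test gave 0 for that last count. These counts move by construction, since fewer or more genes can pass. Pseudocounts of 0.1 and 10, 3 scalings and the primary row alone moved no count or median past these limits, though 3 calls ended. With a pseudocount of 10, 8 members were higher with POU2F3 gRNA (FOXN1 was lost at 0.72) and 2 lower with both COLCA2 guides (FOXP2 was lost). At equal totals 7 were higher with both guides (KLF9 was lost). None of the log2 ratios of named members past 2-fold changed sign. Of 252 alternative values of named members, 21 shifted past the guides' SD. Equal totals shifted the median of all genes most, to -0.079 for COLCA2 gRNA 1. With either COLCA2 guide left out, 3 to 4 members were lower and 9 higher, the KLF median was 0.24 to 0.42 and the forkhead median -0.11 to 0.0065. The depth limits FOXN1 and FOXQ1, whose control values rest on 6 and 14 reads.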
